A study of Mus musculus with 3 samples.

Results

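The genes described here are 10 members of the TGF-β superfamily pathway at an injury site where ectopic bone later forms: the TGF-β ligands *Tgfb1*, *Tgfb2*, and *Tgfb3*, the BMP ligands *Bmp2* and *Bmp4*, the activin subunit gene *Inhba*, and the receptors *Acvr1*, *Bmpr1a*, *Bmpr2*, and *Tgfbr2*. They were chosen by symbol among the 27998 genes counted in each library, and all 10 were found. Heterotopic ossification (HO), bone formation in soft tissue, was induced in 10-week-old male C57BL/6J mice by a burn to the back together with complete transection of the Achilles tendon (burn/tenotomy). On day 3 after surgery, unsorted cells of the bone marrow, the blood, and the tendon injury site were each put through droplet single-cell RNA-Seq, 1 library per tissue. Marrow cells came from flushed femurs and blood cells from the mononucleated layer of a density gradient, with red cells lysed in both, and only the tendon site was digested with enzymes. Site, preparation, and library therefore cannot be told apart, differences lack a check by replicates, and nothing was tested. How many mice went into a library is not given in the sources, and no uninjured tissue was analysed here.

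TGF-β, BMP, and activin ligands are secreted dimers that bring together type I and type II receptor serine/threonine kinases, which then phosphorylate Smad transcription factors. TGF-β is released as a latent complex and signals through TGFBR2. BMP2 and BMP4 signal through type I receptors such as BMPR1A together with type II receptors such as BMPR2. Antagonists such as follistatin and chordin family proteins hold ligands away from their receptors. The pathway is known for driving bone formation, and an activating change in ACVR1, which makes that receptor respond to activin A, causes the inherited bone-forming disease fibrodysplasia ossificans progressiva.

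The promoters of *Tgfb1*, which was highest in monocyte/macrophage-like cells, and of *Tgfb2* and *Inhba*, which were both highest in mural-like cells among tendon classes of at least 50 cells, are shown because they differ in the letters around their start sites. They are RefSeq windows of 300 bases on GRCm38.p6, 250 bases before to 50 bases after the start, printed 5′ to 3′ on the gene's strand with matched motifs in capitals. The *Tgfb1* window lies at chr7:25686752-25687051 on the plus strand, the *Tgfb2* window at chr1:186705940-186706239 on the minus strand, and the *Inhba* window at chr13:16011601-16011900 on the plus strand.
Tgfb1: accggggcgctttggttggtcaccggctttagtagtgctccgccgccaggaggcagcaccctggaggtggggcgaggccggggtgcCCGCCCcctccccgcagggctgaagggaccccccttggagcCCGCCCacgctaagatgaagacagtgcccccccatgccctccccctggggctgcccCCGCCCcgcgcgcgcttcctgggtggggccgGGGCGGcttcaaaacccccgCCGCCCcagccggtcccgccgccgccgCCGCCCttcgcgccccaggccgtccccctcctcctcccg
Tgfb2: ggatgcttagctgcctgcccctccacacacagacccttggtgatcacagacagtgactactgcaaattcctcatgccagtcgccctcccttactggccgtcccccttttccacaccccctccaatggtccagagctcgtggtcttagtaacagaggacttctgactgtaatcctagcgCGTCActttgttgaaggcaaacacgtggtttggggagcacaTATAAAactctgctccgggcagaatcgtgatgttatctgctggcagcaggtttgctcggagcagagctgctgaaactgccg
Inhba: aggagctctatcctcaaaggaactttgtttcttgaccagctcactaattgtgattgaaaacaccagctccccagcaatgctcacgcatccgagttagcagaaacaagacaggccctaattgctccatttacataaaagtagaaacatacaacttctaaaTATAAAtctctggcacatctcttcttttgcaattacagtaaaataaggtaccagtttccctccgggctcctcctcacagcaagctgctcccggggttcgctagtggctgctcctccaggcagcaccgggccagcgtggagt

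The *Tgfb1* window held 6 GC boxes (GGGCGG on either strand) and neither of the other motifs searched. The *Tgfb2* window held a TATA box (TATAAA) that began 31 bases before the start and a core of a cyclic AMP response element (CGTCA) 72 bases before it, and the *Inhba* window held a TATA box 91 bases before the start. Both strands were searched, and among all 32851 tabulated promoters 13.6% held TATAAA, 35.7% held GGGCGG, and 20.8% held CGTCA. Of the 10 genes, 8 had a window in the table, with 6 GC boxes for *Acvr1*, 4 for *Bmpr1a*, 1 for *Bmp4*, 1 for *Bmpr2*, and none of these motifs for *Tgfbr2*. These matches are letters in a window and were not tested as binding sites.

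Expression was deposited as counts of unique molecular identifiers (UMIs), for 1855 bone marrow, 2241 blood, and 5629 tendon cells with medians of 22836, 8316, and 11082 UMIs per cell. After filters and removal of likely doublets, 8739 of 9725 cells were kept, and their UMIs of the 10 genes came to 34223 in the tendon site, 8318 in marrow, and 4744 in blood. Each library was clustered on its own with the 10 genes and the related pathway genes left out of the clustering, and clusters were named from fixed marker genes. The names rest on those markers alone, and 4 tendon clusters with 632 cells and 1 bone marrow cluster with 52 cells stayed unnamed. In the tendon site, all 10 mesenchymal markers stood above 10 CPM in the 663 mesenchymal-like cells, all 10 endothelial markers in the 262 endothelial-like cells, all 9 mural markers in the 106 mural-like cells, and all 12 macrophage markers in the 2029 monocyte/macrophage-like cells. Because the names were given by these markers, this is no separate support for them, and markers of other classes also passed 10 CPM, as given below. The mesenchymal-like cluster of 407 cells had 4 mesenchymal markers among its 100 leading genes and 0 in its first 10. A level (CPM) is a gene's share of all UMIs of the same cells, scaled to a total of 1e+06, and intervals in brackets are exact 95% intervals that cover counting error only, not the spread between animals.

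Among the TGF-β ligands, *Tgfb1* was highest in monocyte/macrophage-like cells and *Tgfb2* and *Tgfb3* in mural-like cells, among the tendon classes of at least 50 cells. *Tgfb1* (ENSMUSG00000002603, chr7:25687002-25705077, plus strand), the ligand best known in inflammation and fibrosis, stood at 257 CPM in monocyte/macrophage-like cells (250.3 to 263), at 163 CPM in dendritic-like cells (145 to 183), and at 161 CPM in endothelial-like cells (153 to 170.4). It was at 69.1 CPM in neutrophil-like cells, 68.7 in mural-like cells, 42.7 in keratinocyte-like cells, 39.4 in mesenchymal-like cells (37.0 to 41.9), and 21.6 in Schwann-like cells. The intervals of neighbours in this order overlapped between dendritic-like and endothelial-like cells, between neutrophil-like and mural-like cells, and between keratinocyte-like and mesenchymal-like cells, and were apart elsewhere. Every one of the 6 monocyte/macrophage-like clusters held between 233 and 284 CPM. Among the classes too small for this order, the 22 B cell-like cells held 353 CPM of *Tgfb1* (240.1 to 502) from 31 UMIs, and the 33 lymphatic endothelial-like cells held 251 CPM (214 to 292).

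*Tgfb2* (ENSMUSG00000039239, chr1:186622792-186705989, minus strand), whose promoter carries the TATA box shown above, stood at 79.3 CPM in mural-like cells (69.3 to 90.4) and at 60.5 CPM in mesenchymal-like cells (57.6 to 63.6). It was at 5.72 CPM in endothelial-like cells, and in monocyte/macrophage-like cells it held 7 UMIs in all, or 0.282 CPM (0.113 to 0.581). *Tgfb3* (ENSMUSG00000021253, chr12:86056745-86079041, minus strand) had the same 2 leading classes, with 94.2 CPM in mural-like cells (83.2 to 106) and 33.0 CPM in mesenchymal-like cells (30.8 to 35.3), and the other 6 classes of at least 50 cells stood between 0.446 and 2.80 CPM with overlapping intervals between neighbours. The 39 tenocyte-like cells, too few to be ranked here, held 137 CPM of *Tgfb2* (111 to 166) and 55.7 CPM of *Tgfb3*. The lead of mural-like cells for *Tgfb2* is one of class levels. The 2 mesenchymal-like clusters described below stood at 46.3 and 98.1 CPM of *Tgfb2*, the latter above mural-like cells. The collagen gauge described below carried 67.3 of the 224 *Tgfb2* UMIs of mural-like cells, and its part in this order was not tested.

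The BMP ligands lay apart from each other. *Bmp2* (ENSMUSG00000027358, chr2:133552159-133562885, plus strand), a ligand long used to induce bone, stood at 38.2 CPM in mural-like cells (31.4 to 46.2), 17.7 CPM in mesenchymal-like cells (16.1 to 19.4), 10.6 CPM in endothelial-like cells (8.44 to 13.1), and 3.99 CPM in monocyte/macrophage-like cells (3.24 to 4.86). *Bmp4* (ENSMUSG00000021835, chr14:46383520-46390669, minus strand) stood at 54.7 CPM in endothelial-like cells (49.7 to 60.1), at 5.84 CPM in mesenchymal-like cells (4.94 to 6.85), and at 0 in monocyte/macrophage-like, dendritic-like, neutrophil-like, and Schwann-like cells. For the monocyte/macrophage-like cells a count of 0 allows up to 0.121 CPM. Tenocyte-like cells held 50.4 CPM of *Bmp2*, and lymphatic endothelial-like cells held 33.1 CPM of *Bmp4* and no UMI of *Bmp2*, which allows up to 4.51 CPM.

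*Inhba* (ENSMUSG00000041324, chr13:16011851-16031621, plus strand) encodes the βA subunit, 2 of which make activin A. In the tendon site it stood at 198 CPM in mural-like cells (182 to 215), 78.9 CPM in mesenchymal-like cells (75.5 to 82.4), and 10.7 CPM in neutrophil-like cells (6.85 to 15.9). Keratinocyte-like, monocyte/macrophage-like, and endothelial-like cells followed at 3.95, 2.62, and 2.24 CPM with overlapping intervals, and Schwann-like cells held none. Among the classes of at least 50 cells, neutrophil-like cells thus ranked next after mesenchymal-like cells for *Inhba*. Their interval lay apart from those of the ranked classes above and below them. This holds for class levels and not for each cluster. The *Cilp*-led mesenchymal-like cluster, at 10.4 CPM, and the *Plac8*-led monocyte cluster, at 8.78 CPM, both described below, lay inside the interval of neutrophil-like cells. The 39 tenocyte-like cells, too few to be ranked here, held more than neutrophil-like cells, at 42.4 CPM of *Inhba* (29.0 to 59.9).

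The receptors were measured in the same classes. *Acvr1* (ENSMUSG00000026836, chr2:58388644-58567157, minus strand), a type I receptor for BMPs, stood at 27.1 CPM in mesenchymal-like cells (25.1 to 29.2), 25.5 in mural-like cells, and 24.3 in Schwann-like cells, which overlapped, at 12.8 CPM in endothelial-like and 11.6 CPM in keratinocyte-like cells, and at 8.02 CPM in monocyte/macrophage-like cells (6.94 to 9.21). *Bmpr1a* (ENSMUSG00000021796, chr14:34410734-34503341, minus strand), the other type I receptor, stood at 60.7 CPM in Schwann-like, 55.6 in mural-like, 47.0 in mesenchymal-like, and 44.5 in keratinocyte-like cells, also overlapping from each class to the next. The next class, neutrophil-like cells, held 5.79 CPM of *Bmpr1a* (3.09 to 9.91), endothelial-like cells 3.11 CPM, and monocyte/macrophage-like cells 0.484 CPM (0.250 to 0.845).

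Both type II receptors were measured in all 8 classes. *Bmpr2* (ENSMUSG00000067336, chr1:59763400-59879014, plus strand) stood at 121 CPM in endothelial-like cells (113 to 128), between 59.3 and 77.1 CPM in mesenchymal-like, mural-like, keratinocyte-like, and Schwann-like cells, and at 39.3, 35.1, and 14.7 CPM in monocyte/macrophage-like, dendritic-like, and neutrophil-like cells. *Tgfbr2* (ENSMUSG00000032440, chr9:116084293-116175360, minus strand) stood at 97.3 CPM in mesenchymal-like cells (93.5 to 101.2), 92.6 in monocyte/macrophage-like cells (88.8 to 96.5), 85.2 in endothelial-like cells, and 70.1 in Schwann-like cells, with overlapping intervals from each to the next. The other 4 classes held between 28.1 and 40.4 CPM of *Tgfbr2*, and mural-like cells, which led for 4 of the 6 ligands among classes of at least 50 cells, were among them at 31.2 CPM. Lymphatic endothelial-like cells held 198 CPM of *Tgfbr2* (166 to 235). An annotated gene on the opposite strand overlaps 6 of the 10 genes, and whether the counting used strand is not stated in the sources used here.

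**Figure D1:**
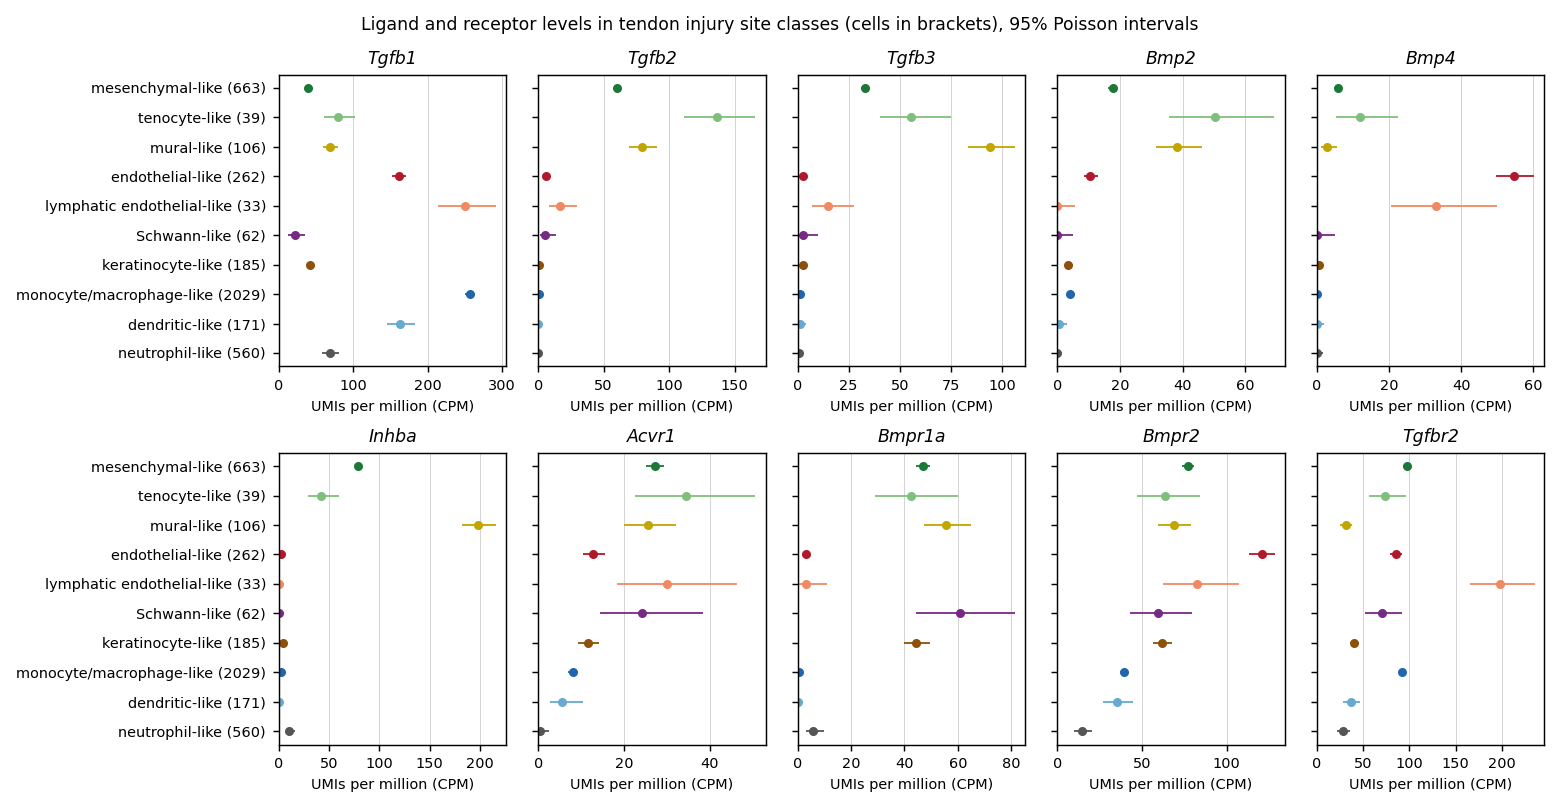
Levels of the 6 ligands and 4 receptors in the tendon injury site library. Each panel shows 1 gene, with its level in CPM on the x axis from 0 and the cell class, with its number of cells, on the y axis; points are class levels and lines are exact 95% Poisson intervals. *Tgfb1* stands at 257 CPM in monocyte/macrophage-like cells and 39.4 CPM in mesenchymal-like cells, while *Inhba* stands at 2.62 and 78.9 CPM in the same classes.

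CPM levels do not show how much of a transcript each class held in the whole library, since classes differed in cells and depth. Mesenchymal-like cells held 30.2% of all tendon UMIs and monocyte/macrophage-like cells 29.3%. Of 11562 *Tgfb1* UMIs, monocyte/macrophage-like cells held 55.1% (54.2% to 56.0%) and mesenchymal-like cells 8.70%. Mesenchymal-like cells held 78.6% of 1968 *Tgfb2* UMIs, 66.2% of *Tgfb3*, 54.7% of *Bmp2*, and 71.8% of 2804 *Inhba* UMIs. The 106 mural-like cells, with 3.34% of all UMIs, held 20.9% of *Tgfb3* and 19.97% of *Inhba*. Endothelial-like cells, with 9.50% of all UMIs, held 68.5% of 642 *Bmp4* UMIs (64.8% to 72.1%). For the receptors, mesenchymal-like cells held 51.1% of *Acvr1*, 64.2% of *Bmpr1a*, 38.4% of *Bmpr2*, and 36.6% of *Tgfbr2*, and monocyte/macrophage-like cells held 33.8% of *Tgfbr2*. These shares depend on which cells the digestion released, and fewer cells of a class and less RNA per cell were not separated by them.

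**Figure D2:**
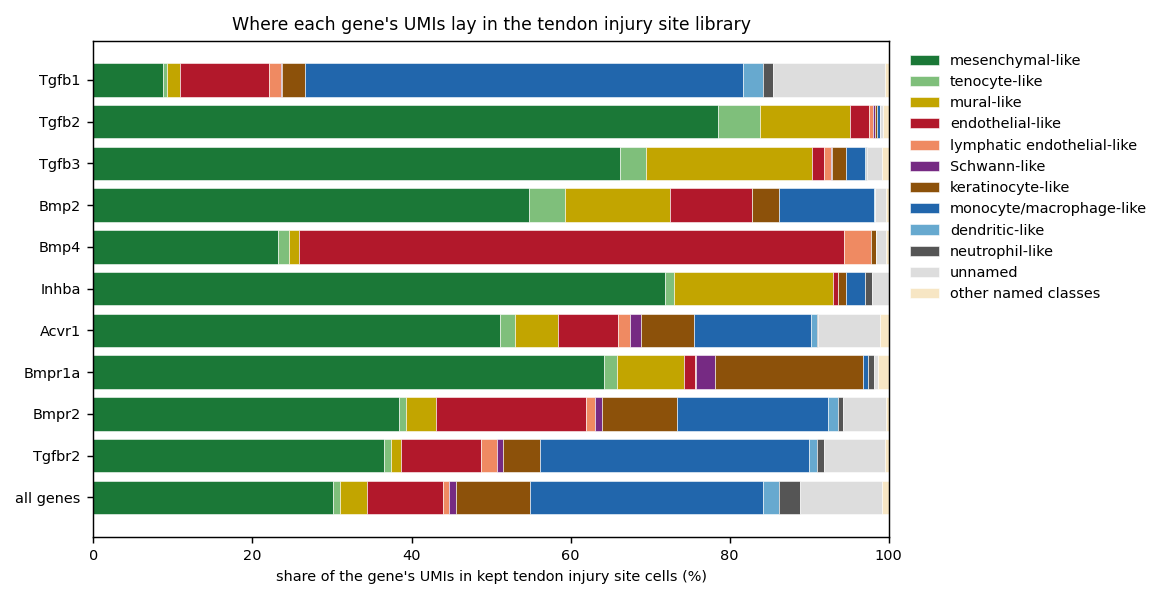
Share of each gene's UMIs held by each cell class among kept cells of the tendon injury site library, in percent on the x axis, with all genes together as the last bar. The blue part, monocyte/macrophage-like cells, makes up 55.1% of the *Tgfb1* bar against 29.3% of the bar for all genes, and the dark red part, endothelial-like cells, makes up 68.5% of the *Bmp4* bar.

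Mesenchymal-like cells, the class of fibroblast-like cells from which ectopic bone is known to arise, were compared with monocyte/macrophage-like cells, the largest immune class of the site. *Tgfb1* was lower in mesenchymal-like cells, at 39.4 against 257 CPM. The other 5 ligands and the type I receptors *Acvr1* and *Bmpr1a* were higher there, while the type II receptors *Bmpr2* and *Tgfbr2* lay within 2-fold. In all, 7 of the 10 genes were at least 2-fold higher and 1 at least 2-fold lower, beside 34.1% of 13654 genes higher and 19.9% lower, with a median log2 ratio of 0.36 over all of them. The log2 ratio was -2.70 for *Tgfb1* (-2.80 to -2.61), 7.75 for *Tgfb2* (6.70 to 9.06), 4.72 for *Tgfb3*, 2.15 for *Bmp2*, 4.91 for *Inhba* (4.56 to 5.29), 1.76 for *Acvr1*, and 6.60 for *Bmpr1a* (5.79 to 7.56). *Bmp4* held 149 UMIs against 0, or at least 48.3-fold higher when the group at 0 is set to 3 counts. *Bmpr2* stood just inside 2-fold at 0.97 (0.86 to 1.08), and *Tgfbr2* at 0.07 (-0.01 to 0.15). The *Bmpr2* ratio passed 2-fold under 4 of 12 other settings of the processing. It was also past it, at 1.02, when the unnamed *Arg1*-led and *Acp5*-led tendon clusters joined the monocyte/macrophage-like cells, a choice made after seeing the data.

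RNA released from stromal cells can enter droplets of other cells, so the collagen genes *Col1a1*, *Col1a2*, and *Col3a1* were followed as a gauge. They summed to 17090.1 CPM in mesenchymal-like cells and to 57.1 CPM in monocyte/macrophage-like cells. At the ratios found in mesenchymal-like cells, collagen UMIs in the monocyte/macrophage-like cells would carry with them 5.02 of their 7 *Tgfb2* UMIs, 3.90 of 12 *Bmpr1a* UMIs, 6.54 of 65 *Inhba* UMIs, 2.74 of 31 *Tgfb3* UMIs, and 1.47 of 99 *Bmp2* UMIs. This gauge takes free RNA to have the mix of mesenchymal-like cells, and free RNA from other classes, such as mural-like cells with more *Inhba* and *Tgfb3* per collagen UMI, was not tested. In endothelial-like cells the same gauge carried 9.32 of 18 *Inhba* UMIs, 7.15 of 46 *Tgfb2* UMIs, and 0.689 of 440 *Bmp4* UMIs. In mural-like cells, at 6729.7 CPM of collagen genes, it carried 67.3 of 224 *Tgfb2*, 36.7 of 266 *Tgfb3*, and 19.6 of 108 *Bmp2* UMIs. It also carried 87.7 of 560 *Inhba*, 52.3 of 157 *Bmpr1a*, and 6.49 of 8 *Bmp4* UMIs there, and 108 *Tgfbr2* UMIs where 88 were counted. Collagen RNA made by mural-like cells themselves was not told apart.

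Endothelial-like cells were compared with mesenchymal-like cells to set the vessel wall beside the stroma. They were higher for 2 ligands and lower for the other genes past 2-fold. *Bmp4* stood at 54.7 against 5.84 CPM (log2 ratio 3.23, 2.96 to 3.51) and *Tgfb1* at 161 against 39.4 CPM (2.03, 1.91 to 2.15). Those 2 of 10 genes were at least 2-fold higher, beside 15% of 13181 genes. Lower by at least 2-fold were *Inhba* at -5.14, *Bmpr1a* at -3.92, *Tgfb3* at -3.73, *Tgfb2* at -3.40, and *Acvr1* at -1.08, which are 5 of 10, beside 17.5% of all genes. *Bmp2* (-0.74), *Bmpr2* (0.64), and *Tgfbr2* (-0.19) lay within 2-fold, and the *Acvr1* ratio did so under 2 of 12 other settings. Endothelial-like cells also held 1351 CPM of the mural marker list, with 9 of 9 markers above 10 CPM, and its part in these ratios was not tested.

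**Figure D3:**
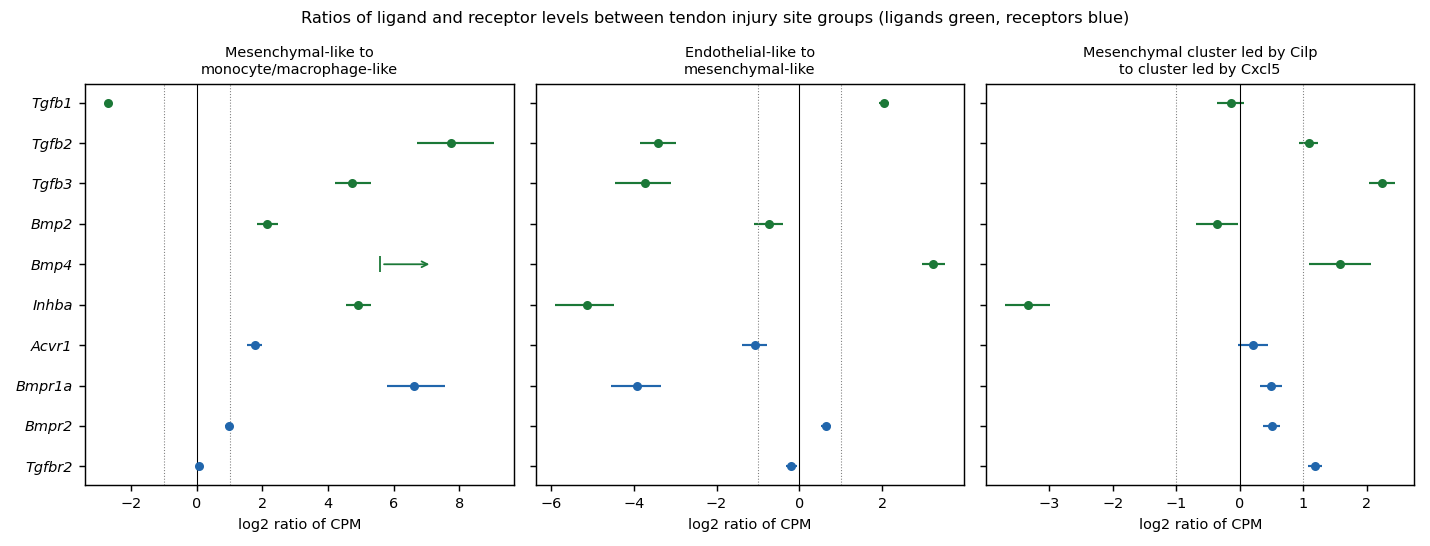
Log2 ratios of CPM between cell groups of the tendon injury site library for the 6 ligands (green) and 4 receptors (blue), with exact 95% intervals as lines, 0 as the solid line, and 2-fold as dotted lines; the arrow marks a lower limit against a count of 0. In the right panel *Inhba* stands at -3.33 and *Tgfb3* at 2.23 between the 2 mesenchymal-like clusters.

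The mesenchymal-like class held 2 clusters, which differed most in *Inhba* and *Tgfb3*. The larger, of 407 cells, was led by *Cxcl5*, *Il1rl1*, and *Crabp1* and had a median of 45301 UMIs per cell, and the smaller, of 256 cells, was led by *Cilp*, *Aspn*, and *Clec3b* and had a median of 26657. *Inhba* stood at 105 CPM in the *Cxcl5*-led cluster (100.2 to 109.6) and 10.4 CPM in the *Cilp*-led cluster (8.16 to 13.1), a log2 ratio of -3.33 for the latter to the former (-3.69 to -3.00). *Tgfb3* ran the other way, at 16.4 and 77.0 CPM (log2 ratio 2.23), as did *Bmp4* at 3.78 and 11.3 CPM (1.57), *Tgfbr2* at 72.2 and 164 CPM (1.18), and *Tgfb2* at 46.3 and 98.1 CPM (1.08). *Tgfb1* (-0.14, -0.35 to 0.06) and *Acvr1* (0.21, -0.03 to 0.45) had intervals that held 0. The class value of *Inhba*, 78.9 CPM, lay outside the intervals of both clusters. This comparison, and those below among clusters and with mural-like, tenocyte-like, and lymphatic endothelial-like cells, were chosen after their values were seen.

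Other stromal and vessel classes were set beside these. Against mesenchymal-like cells, mural-like cells were higher in *Tgfb3* (log2 ratio 1.51, 1.31 to 1.71), *Inhba* (1.33, 1.19 to 1.47), *Bmp2* (1.11, 0.80 to 1.42), *Tgfb1* (0.80), and *Tgfb2* (0.39). They were lower in *Tgfbr2* (-1.64, -1.97 to -1.34) and, with 8 UMIs, in *Bmp4* (-1.04, -2.28 to -0.03), while *Acvr1* (-0.09), *Bmpr1a* (0.24), and *Bmpr2* (-0.17) had intervals that held 0. Mural-like cells also held 7549 CPM of the mesenchymal marker list, against 22927 CPM in mesenchymal-like cells, with 9 of 10 markers above 10 CPM, and its part was not tested. Tenocyte-like cells were higher than mesenchymal-like cells in *Bmp2* (1.51, 0.99 to 1.99), *Tgfb2* (1.17, 0.87 to 1.46), *Tgfb1* (1.014, 0.61 to 1.39), and *Tgfb3* (0.75) and lower in *Inhba* (-0.89, -1.45 to -0.39) and *Tgfbr2* (-0.39, -0.80 to -0.01). The intervals of their *Bmp4*, *Acvr1*, *Bmpr1a*, and *Bmpr2* ratios held 0. Against endothelial-like cells, lymphatic endothelial-like cells were higher in *Tgfb3* (2.59, from 10 and 20 UMIs), *Tgfb2* (1.53, from 11 and 46 UMIs), *Acvr1* (1.23, 0.46 to 1.93), *Tgfbr2* (1.22, 0.94 to 1.49), and *Tgfb1* (0.64). They were lower in *Bmp4* (-0.73, -1.42 to -0.11), *Bmpr2* (-0.55), and *Bmp2* (0 against 85 UMIs, at least 2.35-fold).

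The share of cells with a UMI was compared after each cell was thinned to 2000 UMIs, since medians were 3492 UMIs in neutrophil-like, 11755 in monocyte/macrophage-like, 21694 in endothelial-like, and 35569 in mesenchymal-like cells. A *Tgfb1* UMI was found in 38.2% of 1965 monocyte/macrophage-like cells (36.1% to 40.4%) and 8.45% of 651 mesenchymal-like cells (6.43% to 10.9%), with 64 and 12 shallower cells left out. Without thinning these shares were 87.2% and 61.1%. An *Inhba* UMI was found in 21.8% of mural-like cells (14.2% to 31.1%), 7.68% of mesenchymal-like cells, 1.83% of neutrophil-like cells, and 0.407% of monocyte/macrophage-like cells, and in 55.7%, 36.0%, 3.57%, and 1.72% without thinning. *Bmp4* was found in 9.80% of endothelial-like cells and in none of the 1965 monocyte/macrophage-like cells, which allows up to 0.153%, and *Bmpr1a* in 8.45% of mesenchymal-like and 0.153% of monocyte/macrophage-like cells. In these examples the thinned shares and the CPM put the classes in the same order.

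Monocyte/macrophage-like cells of the tendon site were compared with those of the blood. *Tgfb1* lay close in both, at 257 and 235 CPM (log2 ratio 0.12, 0.05 to 0.20), and bone marrow cells of the class held 196 CPM. Levels of *Tgfbr2* were 92.6 CPM at the tendon site, 39.2 CPM among blood cells, and 12.4 CPM among marrow cells, with a log2 ratio of 1.24 for tendon to blood (1.06 to 1.42). Of the 8 genes with at least 20 UMIs over both groups, 5 were at least 2-fold higher in the tendon site, beside 17.4% of 11644 genes, and 1 was at least 2-fold lower, beside 13% of them. The higher genes were *Inhba* (2.62 against 0.530 CPM, from 65 and 4 UMIs, log2 ratio 2.31, 0.88 to 4.22), *Tgfbr2*, *Acvr1* (1.11), *Bmp2* (1.11, 0.29 to 2.03), and *Tgfb3*, with 31 UMIs against 0, or at least 3.14-fold. *Tgfb2* was lower, at 0.282 against 23.8 CPM, and *Bmpr2* stood at 39.3 and 49.3 CPM (-0.33). *Bmp2* was past 2-fold under 10 of 12 other settings, and *Tgfb3* and *Tgfbr2* under 11 each. With the unnamed *Arg1*-led and *Acp5*-led tendon clusters added to the class, a choice made after seeing the data, *Bmp2* was within 2-fold at 0.86. The class mixes macrophage and monocyte clusters, and monocyte clusters alone are set side by side below.

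Nearly all *Tgfb2* of the blood class lay in 1 small cluster. This cluster of 37 cells was led by *Prg4*, *C1qa*, and *C1qc*, had most markers from the macrophage list, and held 179 of the 180 *Tgfb2* UMIs of the blood class. It stood at 160.0 CPM of *Tgfb2* (137 to 185) and 12.5 CPM of *Bmp2* (6.84 to 20.99), while the blood monocyte clusters held 0.155 CPM of *Tgfb2* and no UMI of *Bmp2*. *Tgfb1* in it was 109 CPM against 257 CPM in the monocyte clusters (log2 ratio -1.24, -1.52 to -0.97). Without this cluster, 4 genes were past 2-fold from blood to tendon, and *Tgfb2* and *Acvr1* were no longer among them, since *Tgfb2* was left under the minimum of 20 UMIs and the log2 ratio of *Acvr1* was 0.99 in place of 1.11. How cells with macrophage markers came to be in the blood library was not tested.

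Clusters of the class also differed within the tendon site. Tendon clusters nearest to the macrophage markers held 130 CPM of *Tgfbr2* and clusters nearest to the monocyte markers 34.1 CPM (log2 ratio 1.93, 1.76 to 2.10). The macrophage cluster of 332 cells led by *Ccl8* and *Cd163* held the highest level, 190.3 CPM (179 to 202), and the monocyte cluster led by *Plac8* the lowest, 26.1 CPM. *Bmp2* had the same direction, at 6.33 and 0.311 CPM, and in the *Ccl8*-led cluster alone it was 15.4 CPM (12.2 to 19.2). *Inhba* had the opposite direction, at 0.528 CPM in macrophage clusters and 5.91 CPM in monocyte clusters (-3.48, -4.76 to -2.41), with 8.78 CPM in the *Plac8*-led cluster. *Tgfb1* differed little, at 249 and 269 CPM. When only monocyte clusters of both sites were set side by side, *Inhba* kept a higher level in the tendon site (5.91 against 0.622 CPM, 3.25, 1.81 to 5.17), and the interval of *Tgfbr2* held 0 (-0.18, -0.43 to 0.06). *Acvr1* was within 2-fold there (0.76, 0.08 to 1.47). *Bmp2*, with 3 UMIs against 0, and *Tgfb3*, with 16 against 0, were under the minimum of 20 UMIs. Of the 99 *Bmp2* UMIs of the tendon class, 96 lay in macrophage clusters. In blood, the monocyte cluster led by *Cd300e* and *Ace*, genes known from nonclassical monocytes, held 99.95 CPM of *Tgfbr2* (80.8 to 122), and the cluster led by *F13a1* and *Vcan* held 28.2 CPM (24.0 to 33.0).

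**Figure D4:**
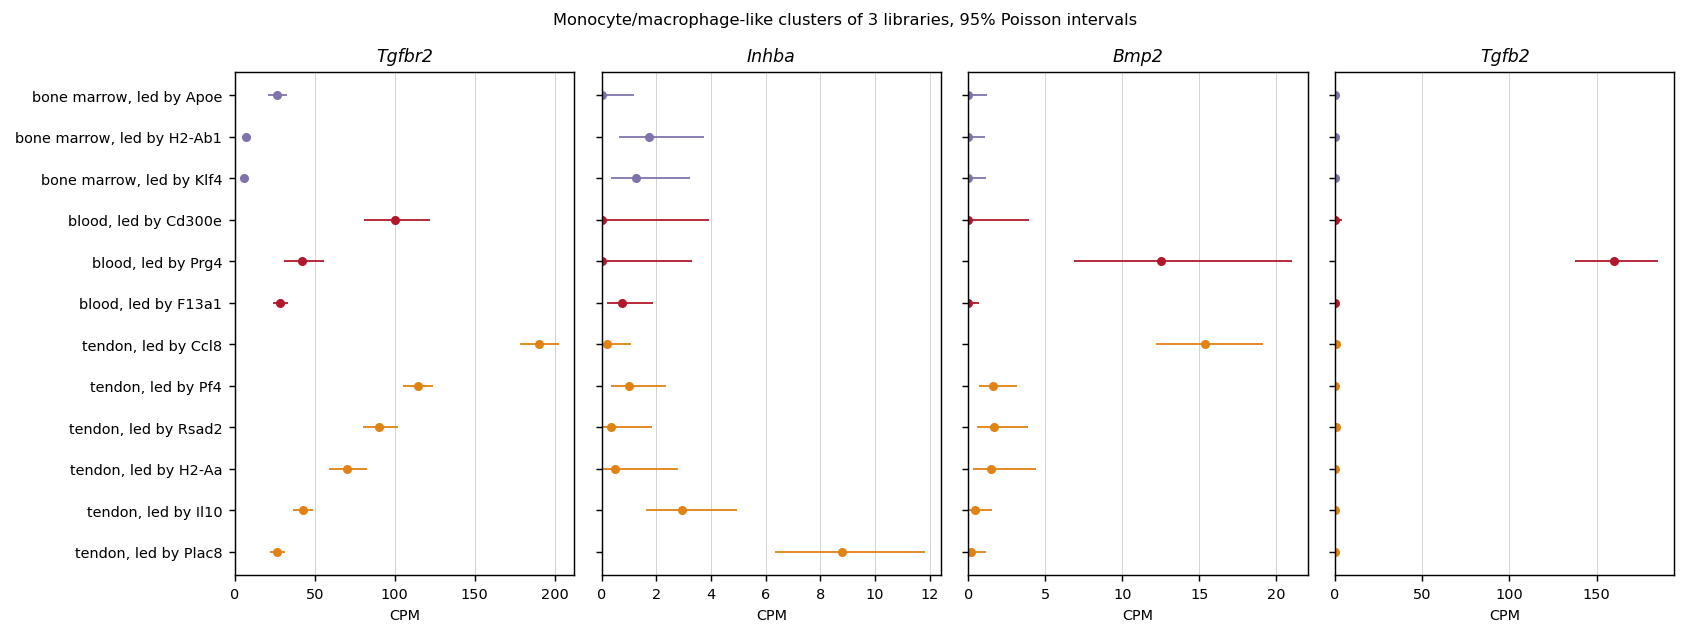
Levels of *Tgfbr2*, *Inhba*, *Bmp2*, and *Tgfb2* in each monocyte/macrophage-like cluster of the bone marrow (purple), blood (red), and tendon injury site (orange), in CPM on x axes that start at 0, with exact 95% Poisson intervals. *Tgfb2* reaches 160.0 CPM in the blood cluster led by *Prg4* and stays below 1 CPM in every other cluster shown, and *Tgfbr2* reaches 190.3 CPM in the tendon cluster led by *Ccl8*.

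Neutrophil-like cells of the bone marrow, blood, and tendon libraries were set side by side. Those of the blood came from the mononucleated layer of a density gradient, and how this selected among blood neutrophils was not tested. *Inhba* was highest in the marrow, at 59.4 CPM (56.2 to 62.8), against 5.97 CPM in blood (3.82 to 8.88) and 10.7 CPM in the tendon site. In the same order of libraries, *Tgfbr2* stood at 8.75, 31.8, and 28.1 CPM, *Bmpr2* at 8.93, 18.2, and 14.7 CPM, and *Bmpr1a* at 10.8, 8.95, and 5.79 CPM. *Tgfb1* was at 36.6, 41.5, and 69.1 CPM. *Tgfb2*, *Bmp2*, and *Bmp4* had no UMI in neutrophil-like cells of any library, *Tgfb3* and *Acvr1* had 1 UMI each in the tendon site and none elsewhere, and in bone marrow a count of 0 allows up to 0.142 CPM.

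From bone marrow to blood, 5 of the 10 genes had enough UMIs for a ratio. At least 2-fold higher in blood were *Tgfbr2* (log2 ratio 1.86, 1.53 to 2.197) and *Bmpr2* (1.02, 0.61 to 1.42), 2 of 5, beside 15.6% of 9643 genes, and at least 2-fold lower was *Inhba* (-3.32, -3.96 to -2.74), 1 of 5, beside 15.3%. The *Bmpr2* ratio was within 2-fold under 9 of 12 other settings and without the bone marrow cluster led by histone genes, where it was 0.68. Without the *Camp*-led blood cluster described below, the *Inhba* ratio was -7.37, which rests on 1 UMI in blood. From blood to the tendon site none of the 5 genes was past 2-fold in either direction, beside 12.1% of 7480 genes higher and 22.9% lower and a median log2 ratio of -0.29. *Inhba* was nearest at 0.84, with an interval that held 0 (-0.04 to 1.72), and *Tgfb1* stood at 0.73 (0.41 to 1.06). The 14 neutrophil markers, all above 10 CPM in each library, summed to 487628 CPM for marrow, 345609 CPM for blood, and 194295 CPM for the tendon site, and their part in these ratios was not tested.

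*Inhba* differed between the neutrophil-like clusters of 1 tissue. In bone marrow it was at 86.8 CPM in the cluster led by *Hist1h3c*, 80.2 CPM in the cluster led by *Ly6g*, 66.8 CPM in the cluster led by *St3gal5*, 36.7 CPM in the cluster led by *Mmp8*, 8.79 CPM in the cluster led by *Retnlg*, and 2.11 CPM in the cluster led by *Gm5483*. The secondary granule genes *Camp*, *Ltf*, and *Ngp*, made by immature neutrophils, summed to between 87586 and 94084 CPM in the first 3 of these clusters, and to 56961, 15862, and 2236 CPM in the others. *Cxcr2*, a chemokine receptor of mature neutrophils, ran from 51.0 CPM in the *Hist1h3c*-led cluster to 1763 CPM in the *Gm5483*-led cluster. An unnamed bone marrow cluster of 52 cells, in which *Inhba* was the first gene by fold and was followed by the cell division genes *Cdc20* and *Cenpf*, held 149.7 CPM of *Inhba* (132 to 169) and 95067 CPM of the granule genes.

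The same split was seen in blood, where *Inhba* was at 18.5 CPM (11.8 to 27.8) in the 63 cells of the *Camp*-led cluster and at 0.360 CPM, from 1 UMI, in the 336 cells of the *Gm5483*-led cluster. Their granule genes stood at 26000.2 and 222 CPM. In the tendon site the *Irg1*-led cluster held 12.02 CPM of the granule genes and 15.03 CPM of *Inhba* (7.21 to 27.6), and the *Retnlg*-led cluster 2346 and 8.87 CPM (4.85 to 14.9), so that their *Inhba* intervals overlapped. Without the *Camp*-led blood cluster the tendon to blood ratio of *Inhba* was 4.89, which rests on that 1 UMI. *Tgfb1* also differed between the tendon clusters, at 102 CPM in the *Irg1*-led cluster (79.3 to 129.5) and 55.1 CPM in the *Retnlg*-led cluster (44.2 to 68.0). The tendon neutrophil-like cells were shallow, with medians of 2687 and 4337 UMIs, and held 24 *Inhba* UMIs in all.

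**Figure D5:**
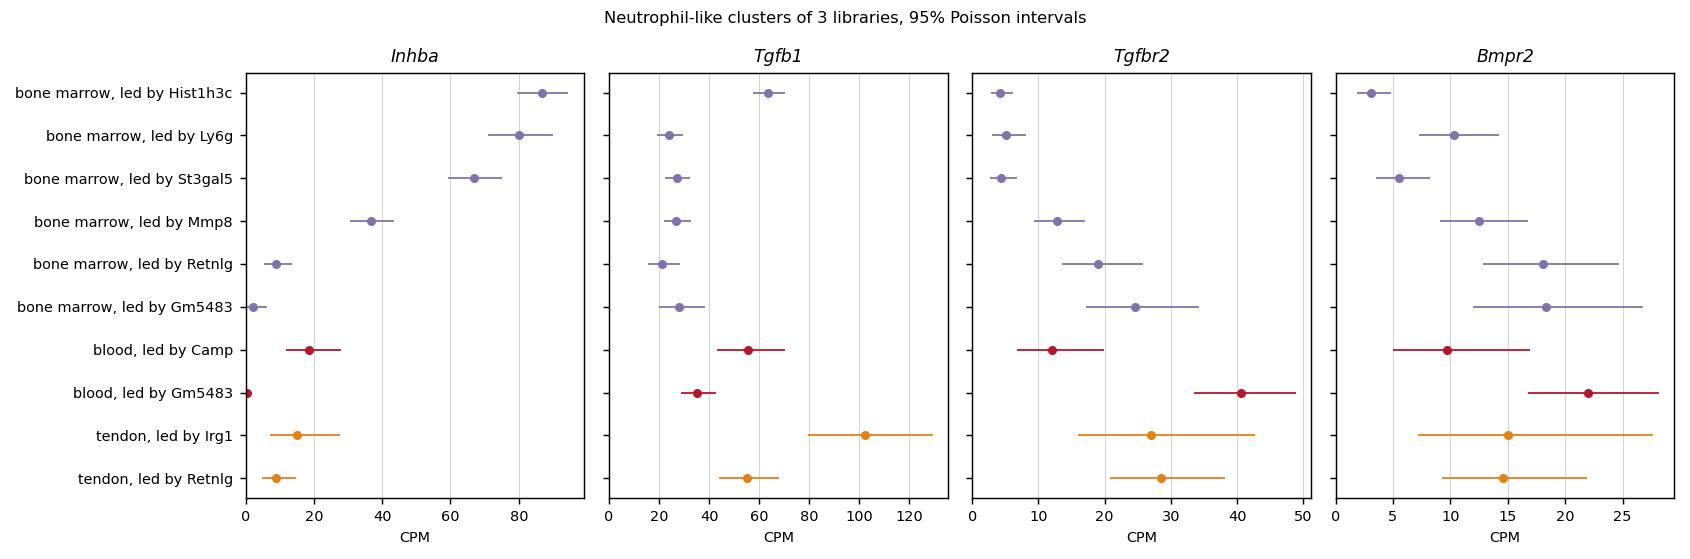
Levels of *Inhba*, *Tgfb1*, *Tgfbr2*, and *Bmpr2* in each neutrophil-like cluster of the bone marrow (purple), blood (red), and tendon injury site (orange), in CPM on x axes that start at 0, with exact 95% Poisson intervals. *Inhba* stands at 86.8 CPM in the *Hist1h3c*-led and 2.11 CPM in the *Gm5483*-led bone marrow cluster, and *Tgfbr2* stands at 4.23 and 24.6 CPM in the same clusters.

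The remaining classes of bone marrow and blood held few of the genes. In bone marrow no class held a UMI of *Tgfb2*, *Tgfb3*, *Bmp2*, or *Bmp4*, and in blood *Bmp4* was at 0 in every class. *Tgfb1* was at 155 CPM in granulocyte precursor-like cells of the bone marrow (148 to 161), against 36.6 CPM in its neutrophil-like cells, and *Inhba* was at 11.2 CPM there (9.48 to 13.1). Blood lymphocytes carried *Tgfbr2*, through which TGF-β restrains T cells, at 96.7 CPM in B cell-like cells (84.1 to 111) and 84.2 CPM in T cell-like cells (77.4 to 91.5), while *Bmpr2* was at 0.458 and 3.30 CPM in them. *Tgfb1* in these 2 classes was at 118 and 46.5 CPM.

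The other genes of the pathway were taken from 6 lists, all of whose 73 genes were in the files. Of 9 extracellular antagonists with enough UMIs, 9 were at least 2-fold higher in mesenchymal-like than in monocyte/macrophage-like cells, beside 34.1% of all genes higher and 19.9% lower. From mesenchymal-like to endothelial-like cells 9 of 9 were at least 2-fold lower, beside 17.5% of all genes lower and 15% higher. The lists were not compared with mural-like cells. The activin antagonist *Fst* stood at 128 CPM in mesenchymal-like cells against 0.564 CPM in monocyte/macrophage-like cells and 4.97 CPM in endothelial-like cells. *Bmper*, which binds BMPs outside the cell, stood at 46.6 CPM against 0.403 CPM and none. Latency and activation genes were higher in mesenchymal-like than in monocyte/macrophage-like cells in 6 of 9, and 1 of 9 was lower. Among the higher ones were *Ltbp2* (124 against 0.363 CPM) and *Lrrc32* (69.6 against 0.484 CPM). The protein of *Lrrc32* holds latent TGF-β on the cell surface. Other ligands were higher in 9 of 12 and lower in 1, *Gdf15*, a stress-induced ligand, at 6.11 against 61.2 CPM.

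Other receptors were at least 2-fold higher in mesenchymal-like than in monocyte/macrophage-like cells in 6 of 11 and lower in none, with the coreceptor *Tgfbr3* at 144 against 0.927 CPM and the activin receptor *Acvr2a* at 31.6 against 9.23 CPM. In endothelial-like cells the receptors were split, with 4 of 11 higher and 4 of 11 lower than in mesenchymal-like cells. The higher ones included the endothelial BMP coreceptor *Eng* at 564 against 30.4 CPM and *Acvrl1* at 91.8 against 35.8 CPM, and *Bmpr1b* was among the lower ones. The BMP-responsive Smad *Smad1* (90.8 against 30.1 CPM) and the BMP target *Id1* (272 against 53.5 CPM) were also higher in endothelial-like cells. Their relation to *Bmp4* was not tested. Of 7 Smads with enough UMIs, 2 were higher and 1 lower, and of 11 targets 1 was higher and 3 were lower. The receptor, Smad, and target counts of endothelial-like against mesenchymal-like cells stand beside 15% of all genes higher and 17.5% lower. For mesenchymal-like against monocyte/macrophage-like cells, 3 of 7 Smads were higher and none lower. Of 11 targets 6 were higher, with *Postn* at 1178 against 4.19 CPM. Another 3 were lower, with *Tgfbi* at 188 against 1003 CPM and *Tgif1* at 50.6 against 225 CPM. These counts and those of the receptors stand beside 34.1% of all genes higher and 19.9% lower in that comparison.

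Known target genes of the pathway were counted between tendon and blood as well. In monocyte/macrophage-like cells 7 of 9 targets were at least 2-fold higher in tendon and none lower, beside 17.4% of all genes higher and 13% lower, with *Tgif1* at 225 against 16.7 CPM, *Skil* at 193 against 26.1 CPM, and *Id3* at 73.2 against 13.1 CPM. In neutrophil-like cells it was 5 of 7, beside 12.1% of all genes, with *Tgif1* at 219 against 1.99 CPM, *Bhlhe40* at 148 against 3.73 CPM, and *Id1* at 79.3 against 28.1 CPM, and several of these genes also answer to other signals. The lists were counted under the reported setting only. For neutrophil-like cells the background moved between settings, as given in the closing section. *Smad7*, an inhibitory Smad, was at 54.2 against 8.74 CPM in monocyte/macrophage-like and 43.7 against 19.2 CPM in neutrophil-like cells, and *Thbs1*, whose protein can activate latent TGF-β, at 1208 against 132 CPM and 2226 against 23.1 CPM. *Tgfbr1*, the type I partner of *Tgfbr2*, was at 49.9 against 21.9 CPM in neutrophil-like cells. In the other lists, monocyte/macrophage-like cells of the tendon were higher for 3 of 5 ligands, 2 of 5 latency genes, and 2 of 2 antagonists. They were also higher for 1 of 9 receptors and 1 of 7 Smads, and lower for 1 of 9 receptors and 1 of 5 latency genes. Within the tendon site, the antagonist list had a median log2 ratio of 8.48 for mesenchymal-like to monocyte/macrophage-like cells. The collagen gauge was not applied to the lists, so the part of free stromal RNA in these counts was not tested. Tendon neutrophil-like cells were higher for 2 of 4 receptors, 2 of 3 latency genes, and 1 of 5 Smads. They were lower for 1 of 5 Smads, beside 22.9% of all genes lower. From bone marrow to blood neutrophil-like cells, 2 of 3 latency genes were higher, with *Furin*, a protease that processes these ligands, at 33.0 and 108 CPM, beside 15.6% of all genes, and 4 of 4 antagonists were lower in blood, beside 15.3%, with *Fstl3* at 7.66 and 1.99 CPM. Antagonists with no UMI in blood were counted among these, and for *Fst*, with 28 UMIs against 0, the floor of 3 counts gives a bound of at least 1.77-fold only. Such antagonists reached the minimum of UMIs through marrow alone. In the same comparison 1 of 4 receptors, 1 of 6 Smads, and 1 of 5 targets were higher in blood, and none was lower.

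Genes whose pattern was most like that of each of the 10 genes were named by Pearson's r of log2(CPM + 1) over the 17 named classes of at least 50 cells in the 3 libraries, among 10045 genes. The classes share libraries and depth, and the values are given as a description. *Tgfb1* was nearest to *Hmox2* (0.89), *Tgfb2* to *Fam20a* (0.95), *Nnmt* (0.92), and *Ltbp1* (0.90), and *Tgfb3* to *Il11* (0.98), *Slit3* (0.96), and *Wisp2* (0.96). *Bmp2* was nearest to *Il6* (0.94), *Ddr2* (0.94), and *Il1r1* (0.93), and *Bmp4* to *Mest* (0.98), *Galnt15* (0.98), and *Fmo2* (0.98). *Inhba* was nearest to *Crispld2* (0.84), *Creb3l1* (0.80), and *Pdgfrl* (0.79), with lower r than for the other ligands. The receptors were nearest to *Tmem65* (0.96) for *Acvr1*, *Map6* (0.88) for *Bmpr1a*, *Coro1c* (0.91) for *Bmpr2*, and *Atxn7* (0.84) for *Tgfbr2*. *Il11* and *Il6* had their highest levels in mural-like cells, at 156 and 372 CPM, the class that also led for *Tgfb3* and *Bmp2*.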

How the data were processed

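The authors deposited raw UMI counts per gene and cell from the 10x Genomics 3′ v3 protocol, with Cell Ranger 5.0.1 named in the file headers and build mm10 in the submitters' processing notes. The annotation and intron or strand settings used in counting are not given in the sources used here. Deposited totals were 49580625 UMIs for bone marrow, 22542581 for blood, and 90621052 for the tendon injury site, and 9 cell barcodes occurred in more than 1 library. Ensembl identifiers were matched to GENCODE M21 on GRCm38 for gene positions, and promoter windows from RefSeq.

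Cells were kept with 200 or more detected genes and no more than 20% of UMIs from mitochondrial genes, and 15 marrow, 57 blood, and 651 tendon cells failed. Doublets were scored by simulated neighbours, and top-scoring cells were dropped at a rate of 0.8% per 1000 cells, leaving 1813, 2146, and 4780 cells. Each library was clustered in scanpy 1.11.5 on 2000 variable genes without 84 pathway genes, with 30 principal components, 15 neighbors, and Leiden resolution 1. A cluster was named for the class that had most markers in its 100 leading genes, with at least 3, and was left unnamed where its first 10 genes went against that class. Macrophage and monocyte clusters were merged into 1 class. Class sums were divided by all UMIs of the class (CPM) with exact Poisson 95% intervals, ratios had intervals from the exact binomial split, and shares had Clopper-Pearson intervals, all of which cover counting error only. Ratios needed at least 20 UMIs over both groups, a group at 0 was set to 3 counts to bound its fold and was counted as past 2-fold, and 2-fold was used as a size, not a test. The intervals were tested on simulated counts with counting error only, which hold no spread between cells, clusters, or animals. All 10 genes are described, along with list genes past 2-fold with at least 100 UMIs, at most 6 for a list in a comparison, and the 3 genes most like each of the 10. The 10 genes and the lists were chosen with earlier results of these data known, and the rules for naming clusters were refined once clusters were known. Some list genes are counted but not reported here by name. Other data of the study were not analysed here. Software was matplotlib 3.10.9, pandas 2.3.3, scikit-learn 1.9.0, scipy 1.17.1, and numpy 2.4.6 under Python 3.11.15. The effect of 14 other settings is given in the closing section.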

Additional observations from a re-analysis of the deposited data

How the results depend on the processing

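No paired analysis was possible because each tissue has 1 library and no test was made. Across 12 other settings for cells, doublets, clusters, names, scaling, and filters, the number of genes past 2-fold stayed within 1.5 times in 4 of the 5 comparisons, and no ratio past 2-fold changed direction. The exception was tendon to blood neutrophil-like cells, with 0 genes past 2-fold. With no doublets removed it was 2 (*Tgfb1* and *Inhba*), at a lower resolution 3 (*Tgfb1*, *Acvr1*, and *Bmpr1a*), and with no minimum of UMIs 2 (*Tgfb3* and *Acvr1*, 1 UMI each). It was 1 (*Inhba*) with the libraries clustered together, with cells named one by one, and with the mean of per-cell CPM. Of the alternatives chosen after seeing the data, adding the unnamed tendon granulocyte cluster gave 2 (*Tgfb1* and *Bmpr1a*), and leaving out the *Camp*-led blood cluster gave 1 (*Inhba*). *Bmpr1a* was lower in the tendon site wherever it was counted here, and the other genes were higher. These counts stand beside backgrounds that moved with them. The share of all genes at least 2-fold higher was 12.1% as reported. It was 23.3% with no doublets removed, 48.3% at the lower resolution (median log2 ratio of all genes 0.93), and 17.9% with the libraries clustered together. It was 29.0% with cells named one by one, and 41.9% with the unnamed granulocyte cluster. The share at least 2-fold lower, 22.9% as reported, was 9.96% at the lower resolution and 8.80% with the unnamed granulocyte cluster. From bone marrow to blood neutrophil-like cells, the share of all genes lower was 44.2% with cells named one by one, against 15.3% as reported. The cause was not tested. Scaling moved the background of tendon to blood neutrophil-like cells from 12.1% higher and 22.9% lower to 15.6% and 19.4% with the mean of per-cell CPM. The median of all genes shifted by 0.17 there. Without mitochondrial, ribosomal protein, hemoglobin, *S100a8*, and *S100a9* UMIs that background was 9.16% and 32.2%, and the median of all genes shifted by -0.29. From bone marrow to blood neutrophil-like cells, 15.6% and 15.3% became 14.1% and 21.7%, and 12.1% and 20.5%, with a shift of -0.22 in the second case. The class with the highest level of a gene, among those of at least 50 cells, was the same for all 10 genes under 6 of the other settings. Under the stricter cell filter, with 500 genes as the minimum and 10% mitochondrial UMIs as the limit, tenocyte-like cells led for *Tgfb2*, *Bmp2*, and *Acvr1*, and at double resolution for *Bmp2* and *Acvr1*. In the reported setting the 39 tenocyte-like cells were left out of this order as under 50 cells. Their levels of *Tgfb2*, *Bmp2*, and *Acvr1*, at 137, 50.4, and 34.5 CPM, already stood above those of every ranked class. Only the interval of *Tgfb2* (111 to 166) lay apart from those of the ranked classes. The intervals of *Bmp2* (35.7 to 69.2) and *Acvr1* (22.5 to 50.5) overlapped those of mural-like cells. Schwann-like cells led for *Acvr1* with no doublets removed, with more doublets removed, and with the mean of per-cell CPM. Mural-like cells led for *Bmpr1a* in the latter 2 cases, and monocyte/macrophage-like cells for *Tgfbr2* with no doublets removed. Without thinning, the class with the highest share of cells was the same for 6 of 10 genes. Mesenchymal-like cells then led for *Tgfb2*, *Acvr1*, and *Bmpr1a*, and keratinocyte-like cells for *Bmpr2*. Medians in these classes were 35569 and 38779 UMIs per cell, and the part of depth was not tested. With cells thinned to 1000 UMIs it was the same for 8 of 10, and *Bmpr1a* led in mural-like and *Tgfbr2* in Schwann-like cells. Over all settings, 435 log2 ratios stayed within their counting interval and 43 moved out of it, as did 774 and 96 of the levels in tendon classes, and 64 and 96 of the shares of cells. Genes under about 20 UMIs in a group, such as *Inhba* in tendon neutrophil-like clusters and *Tgfb2* in monocyte/macrophage-like cells, are limited by depth.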

Other observations

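The unnamed tendon clusters held some of the genes too. The cluster of 257 cells led by *Arg1*, *Ppbp*, and *Spp1* stood at 222 CPM of *Tgfb1* (208 to 238), 5.39 CPM of *Tgfb3* (3.29 to 8.33), and 8.36 CPM of *Inhba* (5.68 to 11.9), while the named monocyte/macrophage-like clusters reached at most 2.31 CPM of *Tgfb3* and 8.78 CPM of *Inhba*. The cluster of 260 cells led by *Acp5*, *Atp6v0d2*, and *Nrp2*, with the osteoclast genes *Ctsk* and *Tnfrsf11a* among its first 10, stood at 144 CPM of *Tgfb1* (131 to 159) and 18.4 CPM of *Acvr1* (13.9 to 24.0), against at most 9.45 CPM of *Acvr1* in the named monocyte/macrophage-like clusters. The cluster of 62 cells led by *Camp* and *Ngp*, with cell division genes among its first 10, held 179 CPM of *Tgfb1* and 81.9 CPM of *Tgfbr2* (68.8 to 96.7), against 28.1 CPM in tendon neutrophil-like cells. The 16 skeletal muscle-like cells, led by *Myog*, held 40.9 CPM of *Bmpr1a* (26.7 to 59.9) and no UMI of *Inhba*.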
